A study of Canis lupus familiaris with 15 samples.

Results

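Of 15 canine osteosarcomas (OSA), 11 had a signal of IGF2BP1 above the array's background and 4 did not, and this report compares those IGF2BP1-expressing and IGF2BP1-silent tumors. The tumors were selected on the measured signal of the gene's only probeset and not on a label. A tumor was called expressing when the log2 value was above 6.79, the 95th percentile of 64 reporter control probesets averaged over the arrays, and silent when it was below. Each array held the primary tumor of 1 pet dog, taken at amputation before chemotherapy, and the study set dogs whose disease free interval (DFI) was below 100 days against dogs whose interval exceeded 300 days. After amputation the dogs received doxorubicin or a platinum drug. Signals are log2 values of PLIER intensities, so a difference of 1 is a doubling.

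The expressing tumors came from all 8 dogs of the DFI < 100 cohort and from 3 of the 7 dogs of the DFI > 300 cohort. The 4 silent tumors all came from the DFI > 300 cohort. The 3 expressing DFI > 300 dogs were a Golden Ret., a Rottweiler and a Greyhound aged 7.1 to 10.4 years. The 8 DFI < 100 dogs were 3 Greyhounds, a Doberman, a Golden Ret., a Labrador Ret., a Rottweiler and a mixed-breed dog, aged 4.4 to 10.8 years. The silent dogs were 4 mixed-breed dogs aged 10.4 to 13.4 years. Expressing dogs averaged 7.99 ± 2.08 years (SD, n = 11) and silent dogs 11.9 ± 1.28 years (SD, n = 4). The difference of -3.93 years had an exact two-sided permutation p of 0.00733, and 0.044 after Benjamini-Hochberg adjustment over 6 such tests. All 4 silent tumors were osteoblastic, as were 7 of the 11 expressing tumors, of which 3 others were of giant cell subtype and 1 was listed as PD. Status is therefore mixed with cohort, breed and age. Within the DFI > 300 cohort, where cohort is held, breed and status cannot be told apart.

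IGF2BP1, also called IMP1, is an mRNA-binding protein of fetal tissues that is largely silent in adult tissue and is switched on again in many cancers. It holds its client mRNAs, among them those of MYC, IGF2 and beta-actin, in cytoplasmic particles that govern their stability, transport and translation. Its own mRNA is a target of the let-7 microRNAs, and LIN28 proteins, which block let-7, belong to the same oncofetal program. In bulk tumor RNA, a lower share of cells of a type and less RNA per cell cannot be told apart.

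The IGF2BP1 signal is given as a description, because it chose the groups. In the DFI < 100 cohort the log2 values were 10.37, 9.85, 9.29, 8.88, 8.70, 7.81, 7.28 and 7.17. The expressing DFI > 300 tumors had 9.57, 9.31 and 8.41. The silent tumors had 5.91, 4.11, 2.97 and 2.84. Nearest the threshold were dog 204714 at 7.17 and dog 173175 at 7.28 on the expressing side, and dog 193231 at 5.91 on the silent side. The 193231 value was above 54.6% of the probesets on its own array, against 11.9% to 25.5% in the other silent tumors. Silent here means only that the signal was below the reporter level. The mixed-breed dog among the expressing, 153599, had 8.88, in the middle of its group.

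**Figure D1:**
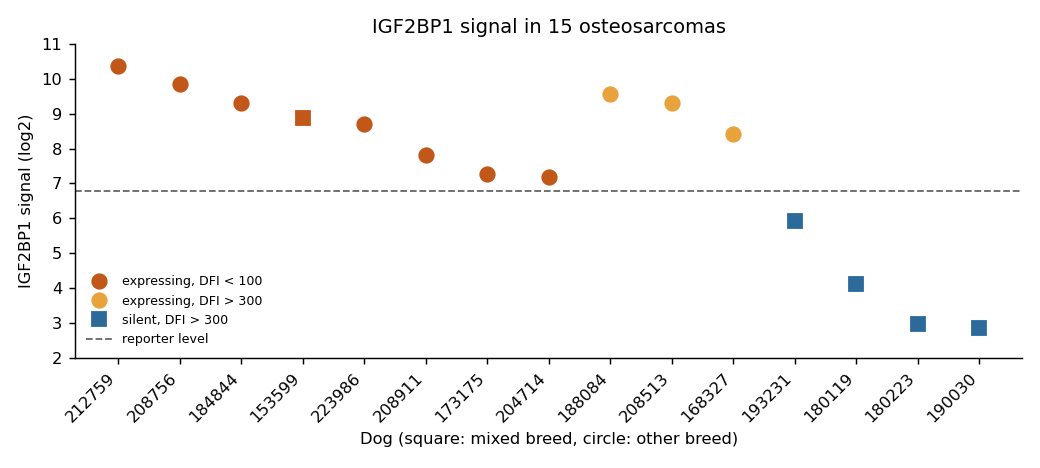
Log2 signal of IGF2BP1 in each of 15 tumors, with squares for mixed-breed dogs and the dashed line at the reporter level of 6.79. The 11 expressing tumors lie between 7.17 and 10.37 and the 4 silent tumors between 2.84 and 5.91.

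Over all 15 dogs, few genes differed between expressing and silent tumors beyond the number of tests made. With limma and Benjamini-Hochberg adjustment over 42860 probesets, 2 probesets other than IGF2BP1 passed an adjusted p of 0.05, which is 0.00467% of those tested. GJC1 was higher in expressing tumors, and a probeset with no gene name was lower, at 6.43 to 6.90 in expressing tumors, against 7.44 to 7.96 in silent tumors. Both calls rested on the rank that IGF2BP1 itself takes in the adjustment: with IGF2BP1 left out, both had an adjusted p of 0.0608. At an unadjusted p under 0.05, 3.87% of probesets were higher and 2.95% were lower, 6.82% together. The groups did not overlap in 51 probesets that were higher (0.119%) and 37 that were lower (0.0863%).

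GJC1 encodes connexin 45, a gap junction protein. In the DFI < 100 cohort its log2 signals were 7.37, 7.25, 7.02, 6.79, 6.77, 6.65, 6.57 and 6.31, and the expressing DFI > 300 tumors had 7.56, 7.44 and 7.35. The silent tumors had 5.62, 5.55, 5.06 and 5.05. Every expressing tumor was above every silent tumor, although the silent values and 5 of the 11 expressing values were below the reporter level. The difference in measured log2 signal was 1.69 (SE 0.23), with a limma adjusted p of 0.0405. The highest value of the DFI < 100 cohort was that of 153599, the mixed-breed dog. With age as a covariate the difference was 1.77 and the adjusted p was 1.

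None of the genes next in rank passed the adjusted threshold. RAD50, a subunit of the complex that senses DNA double-strand breaks, ran from 8.97 to 10.05 with a median of 9.43 in expressing tumors, against 8.78, 8.61, 8.16 and 8.05 in silent tumors. The groups did not overlap, with a difference of 1.11 (SE 0.21, limma adjusted p = 0.315). MCM2, a subunit of the replicative helicase, ran from 6.79 to 8.48 with a median of 7.87 in expressing tumors, against 7.15, 6.40, 6.08 and 5.88 in silent tumors. The expressing dogs 208911, at 6.79, and 188084, at 7.11, were below the highest silent dog, and the difference was 1.36 (SE 0.30, limma adjusted p = 0.495). All silent values of MCM2 but the highest were below the reporter level. FANCD2, of the Fanconi anemia repair pathway, differed by 1.48 (SE 0.37, limma adjusted p = 0.529).

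Other genes with higher values in expressing tumors had different roles. WASF1, which drives branched actin assembly, ran from 6.0 to 7.70 in expressing tumors, against 5.85, 5.53, 4.53 and 3.98 in silent tumors. The groups did not overlap and the difference was 2.01 (SE 0.34, limma adjusted p = 0.285), but a second, dimmer probeset of WASF1 differed by only 0.34 (SE 0.17). All silent values of WASF1, and its lowest expressing value, were below the reporter level. GRB10, an adaptor that restrains insulin and IGF receptor signaling, differed by 1.65 (SE 0.41, limma adjusted p = 0.529). In GRB10 the mixed-breed expressing dog 153599, at 5.29, lay within the silent values of 5.98, 5.57, 5.32 and 4.14. ZFP64, a zinc finger protein, ran from 7.22 to 8.04 in expressing tumors, against 7.09, 6.78, 6.66 and 5.21 in silent tumors, all but the highest below the reporter level.

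Of the 15 genes named for lower values in expressing tumors, none passed the adjusted threshold. SDC2, a cell surface heparan sulfate proteoglycan, ran from 9.94 to 11.53 with a median of 11.04 in expressing tumors, against 12.50, 12.16, 12.07 and 11.76 in silent tumors. The groups did not overlap, and the difference was -1.29 (SE 0.31, limma adjusted p = 0.529). LXN, a carboxypeptidase inhibitor, ran from 5.49 to 8.38 in expressing tumors, against 9.37, 9.23, 8.00 and 7.60 in silent tumors. Its difference was -1.93 (SE 0.46, limma adjusted p = 0.527), and all 4 LXN probesets had negative differences, from -1.65 to -1.93. MACF1, which links microtubules to actin, ran from 9.30 to 10.45 in expressing tumors, against 11.74, 10.80, 10.49 and 10.33 in silent tumors. LIFR, the receptor of leukemia inhibitory factor, and IFNGR2, a chain of the interferon gamma receptor, had differences of -1.29 (SE 0.35) and -1.26 (SE 0.29). YPEL5 was among them by the probeset that ranked highest, at -1.36, while another of its probesets above background differed by 1.28 the other way.

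**Figure D2:**
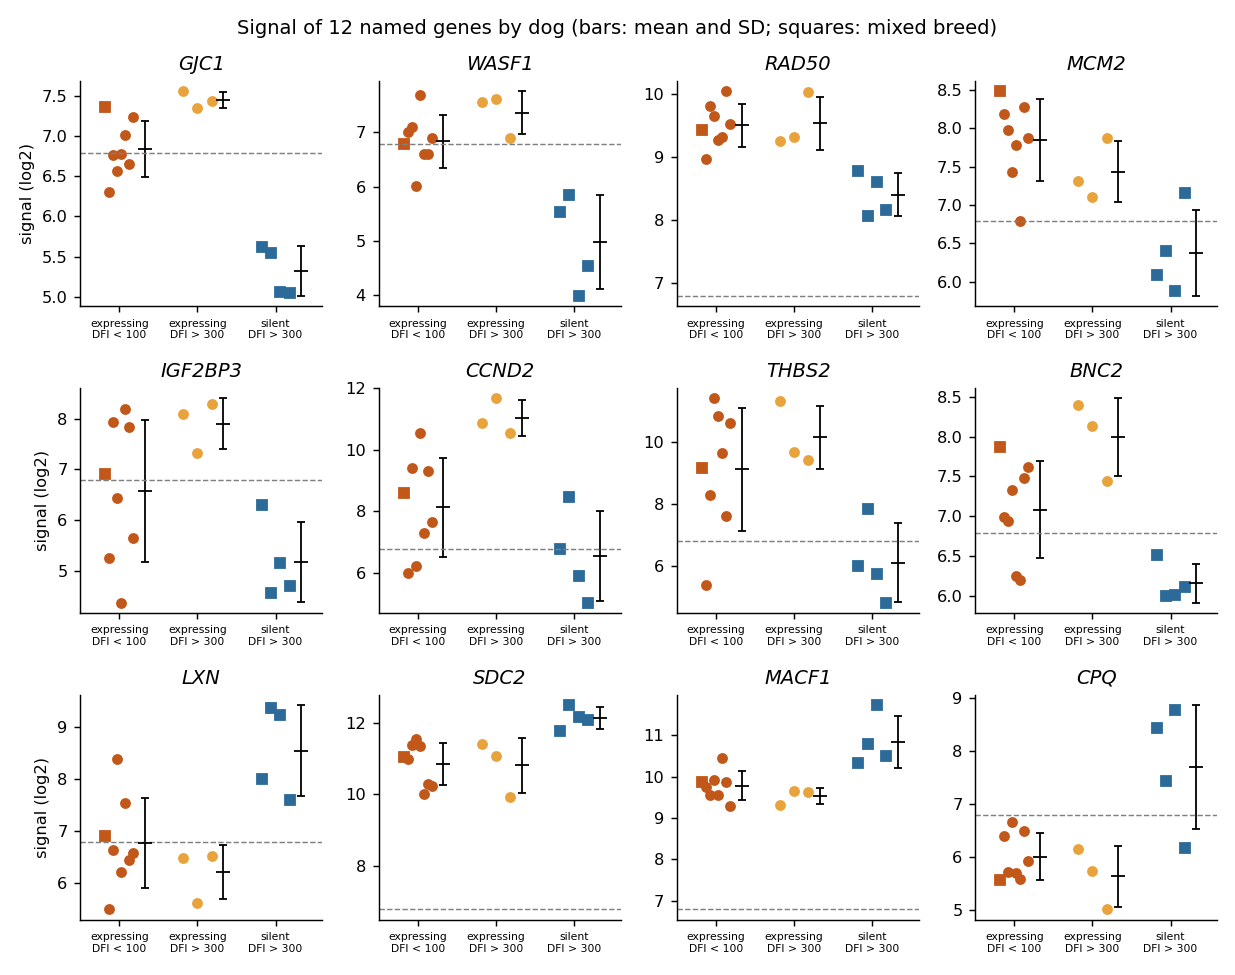
Log2 signal of 12 named genes in each dog, with mean and SD of each group, squares for mixed-breed dogs and the dashed line at the reporter level. GJC1, WASF1 and RAD50 show no overlap between the 11 expressing and 4 silent tumors, and SDC2 lies higher in every silent tumor.

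Within the DFI > 300 cohort, 3 expressing tumors were set against the same 4 silent tumors, so the cohort played no part. The 5 probesets with an adjusted p under 0.05, 0.0117% of those tested, were 1 higher and 4 lower, and the higher one has no gene name. The 4 lower ones, among them SLC27A2 and MCF2, were at log2 values of 2.12 or below in every DFI > 300 tumor, far under the reporter level. With an offset of 16 added before the log, or with probesets above the reporter level only, no probeset passed. At an unadjusted p under 0.05, 3.46% of probesets were higher and 2.84% lower. Array measures moved with status here: 15120 to 15161 probesets were above the reporter level in expressing tumors, against 14255 to 14868 in silent tumors. The log2 ratio of 3' to 5' actin and GAPDH probesets differed by 0.43 (exact two-sided permutation p = 0.0857), and by -0.74 with EF1A added (exact permutation p = 0.714). Their part in the differences was not tested. The named genes below had the smallest p in this cohort among those with a fold above 2. Only the mean of their higher group had to be above the reporter level. Their groups do not overlap, but genes picked by p are bound to show this, so it is no further evidence. Of all probesets, 3.49% had no overlap with higher and 3.92% with lower values.

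GJC1 differed by 2.13 (SE 0.24, limma adjusted p = 0.273) in this cohort. IGF2BP3, the family member closest to IGF2BP1 in its oncofetal pattern, had log2 signals of 8.29, 8.09 and 7.33 in the expressing tumors, against 6.29, 5.16, 4.70 and 4.56 in the silent tumors. The difference was 2.72 (SE 0.48, limma adjusted p = 0.773), and a second IGF2BP3 probeset differed by 2.41 (SE 0.47). In the DFI < 100 cohort IGF2BP3 was spread from 4.37 to 8.20, across and beyond the silent values. IGF2BP2, the third member, stayed under the reporter level in every tumor.

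CCND2, a cyclin that drives entry into the cell cycle and a let-7 target, was among the genes named in this cohort. Its log2 signals were 11.68, 10.88 and 10.55 in the expressing tumors, against 8.48, 6.77, 5.91 and 5.04 in the silent tumors. The difference was 4.49 (SE 0.79, limma adjusted p = 0.773). All silent values but the highest were below the reporter level, as was the case for THBS2, and every silent value of IGF2BP3 and GRB10 was below it. The log2 differences of these genes therefore describe measured signal and are not reliable as folds of expression. In the DFI < 100 cohort CCND2 ran from 6.01 to 10.56, and over all 15 dogs the difference was 2.38 (SE 1.0, limma adjusted p = 0.697).

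Other genes named in this cohort had higher values in the 3 expressing tumors. THBS2, a matricellular thrombospondin, had 11.32, 9.69 and 9.41, against 7.85, 5.99, 5.76 and 4.82 in silent tumors, a difference of 4.03 (SE 0.78). Over all 15 dogs the THBS2 difference was 3.29 (SE 0.92, limma adjusted p = 0.57), with only dog 173175, at 5.39, and dog 212759, at 7.60, of the expressing dogs under the highest silent value. EGFR, the epidermal growth factor receptor, had 9.89, 9.78 and 8.73, against 7.79, 6.98, 6.97 and 6.52 in silent tumors. FBLN2 and LAMB1, both matrix proteins, and BNC2 differed by 1.78 (SE 0.33), 2.35 (SE 0.46) and 1.83 (SE 0.29). The brightest probesets of FBLN2 and LAMB1 differed by 1.57 (SE 0.31) and 1.17 (SE 0.46). Of BNC2 the brightest probeset is given. A dimmer BNC2 probeset differed by 1.81 (SE 0.37), and the other dimmer ones by 0.02 to 0.51, all with means below the reporter level. With lower values were LXN, at -2.35 (SE 0.52), CAP1, which recycles actin, at -1.53 (SE 0.35), and CETN2, a centriole protein, at -1.22 (SE 0.31). By the probesets named by rank, all of these genes had limma adjusted p-values of 0.738 or 0.773 in this cohort.

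In the IGF axis, from which IGF2BP1 takes its name, none of 8 ligands, receptors and substrates had an unadjusted p under 0.05 in either comparison. IGF2 had log2 signals of 9.68, 8.94 and 4.38 in the expressing DFI > 300 tumors, against 6.25, 5.70, 4.11 and 3.89 in the silent tumors. The difference was 2.68 (SE 1.32, limma adjusted p = 0.773), and 1.67 without dog 208513 and 4.32 without dog 188084. In the DFI < 100 cohort all 8 IGF2 values were between 2.98 and 5.70. IGF2R, which clears IGF2, was well above background in all tumors, with a difference of -0.08 (SE 0.36) over 15 dogs. Of 12 IGF binding proteins and proteases, none had an unadjusted p under 0.05.

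Of 19 oncofetal and let-7 genes measured, 14 had higher values in expressing tumors over 15 dogs and 5 lower, with a median difference of 0.32. Over all 15114 named genes, 51.1% were higher, 48.9% lower and the median was 0.01, and of the 6447 above the reporter level 55.3% were higher and 44.7% lower. CCND2, GRB10, ARID3A and E2F5 had an unadjusted p under 0.05, against 4% of all named genes in that direction and 2.75% lower, or 5.63% and 3.21% above the reporter level. The means of GRB10, ARID3A and E2F5, at 6.46, 4.89 and 5.54, were below that level. Only 5 of the 19 genes had a mean above it. Within the DFI > 300 cohort 15 were higher and 4 lower, with a median of 0.55, and CCND2 and GRB10 had an unadjusted p under 0.05, while ARID3A and E2F5 differed by 1.41 and 0.70 without passing it. LIN28A passed it in the other direction there, at -1.03 (SE 0.29, limma adjusted p = 0.773), with all values far below the reporter level. The slope of ARID3A on IGF2BP1 in the DFI < 100 cohort was -0.55. LIN28B was below the reporter level in every tumor. Of 19 mRNAs known to be bound by IGF2BP1, 12 were higher and 7 lower over 15 dogs, with a median of 0.11. MYC and TPX2 had an unadjusted p under 0.05, with differences of 1.03 (SE 0.39) and 1.01 (SE 0.39), and a limma adjusted p of 0.674 for each. The MYC difference was 0.13 with age as a covariate. Within the DFI > 300 cohort 10 of these mRNAs were higher and 9 lower, with a median of 0.03. There GLI1, at 1.01, had an unadjusted p under 0.05, and MYC and TPX2, at 0.87 and 1.35, did not. Another list held 13 writers, readers and erasers of m6A, the mRNA mark that IGF2BP proteins bind. Over 15 dogs METTL3, ZC3H13 and YTHDC2 had higher values at that p and none had lower. In the DFI > 300 cohort 6 were higher and 7 lower, ZC3H13 and YTHDC2 passed that p, and METTL3, at 0.71, did not.

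The cell cycle list held 26 measured genes, of which 22 had higher and 4 lower values in expressing tumors, with a median difference of 0.39. Only MCM2 had an unadjusted p under 0.05. Over the 15 dogs 51.1% of all named genes were higher and 48.9% lower, with 4% and 2.75% at that p. Above the reporter level the shares were 55.3% and 44.7%, with 5.63% and 3.21% at that p. Within the DFI > 300 cohort 20 cell cycle genes were higher and 6 lower, with a median of 0.42. In that cohort MCM2 and MCM3 had an unadjusted p under 0.05. There 50.4% of all named genes were higher and 49.6% lower, with 3.38% and 2.36% at that p, and above the reporter level 55.3% and 44.7%, with 3.57% and 1.97%. Of 46 cytosolic ribosomal protein genes, 38 were higher and 8 lower over 15 dogs, with a median of 0.14. At that p 4 were higher and 0 lower, and RPL36 differed most in p, at 1.02 (SE 0.26, limma adjusted p = 0.55). Within DFI > 300, 38 were higher and 8 lower, with a median of 0.12 and 1 at that p. Of 26 glycolysis and hypoxia genes, 21 were higher and 5 lower over 15 dogs, with a median of 0.23 and 1 at that p. Within DFI > 300, 18 were higher and 8 lower, with a median of 0.17 and 2 at that p.

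Markers of other cell types were described with the same tests, beside 51.1% of all named genes higher and 48.9% lower, and 4% and 2.75% at an unadjusted p under 0.05. Of 14 macrophage markers, 2 had higher and 12 lower values in expressing tumors, with a median difference of -0.30 and no unadjusted p under 0.05. The mean over these 14 markers ran from 6.30 to 8.40 in expressing tumors, against 6.49 to 10.31 in silent tumors. Of 12 endothelial markers, 1 had a higher value, with a median of -0.20. Of 15 T and NK cell markers, 11 were higher and 4 lower over 15 dogs, with a median of 0.23, and only PRF1, higher, and CD8B, lower, had an unadjusted p under 0.05. Only 2 of the 15 had a mean over the 15 dogs above the reporter level. The means of PRF1, at 2.10, and CD8B, at 6.02, were below it. In the DFI > 300 cohort 11 were higher and 4 lower, with a median of 0.87, and the mean over the markers ran from 3.64 to 7.16 in expressing tumors, against 3.88 to 4.97 in silent tumors. CD3G, a chain of the T cell receptor complex, had 8.56, 7.76 and 4.65 in the expressing tumors, against 4.87, 4.74, 3.37 and 0.59 in the silent tumors, a difference of 3.6 (SE 1.32, limma adjusted p = 0.773). All the silent values, and the value of 4.65, were below the reporter level. CD3E differed by 0.20 (SE 0.27). The part of macrophages, endothelium or T cells in the differences between expressing and silent tumors was not tested. The osteoblast list showed no gene with an unadjusted p under 0.05, and COL1A1 was at 12.76 or above in all 15 tumors. Of 13 cartilage genes, 9 were higher with a median of 0.60, and SOX5, COL2A1 and COL9A1 had an unadjusted p under 0.05. Only 3 of the 13 had a mean above the reporter level. The means of SOX5, COL2A1 and COL9A1, at 4.09, 5.16 and 5.26, were below it. COL2A1, the collagen of cartilage, ran from 1.93 to 10.85 in expressing tumors, against 4.19, 2.51, 0.69 and -7.61 in silent tumors, all below the reporter level. The difference of 7.11 rested partly on the value of -7.61 in dog 190030, and was 4.59 without that dog and 3.17 with an offset of 16. SOX9, the regulator of cartilage fate, had a difference of -0.39 (SE 1.03).

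**Figure D3:**
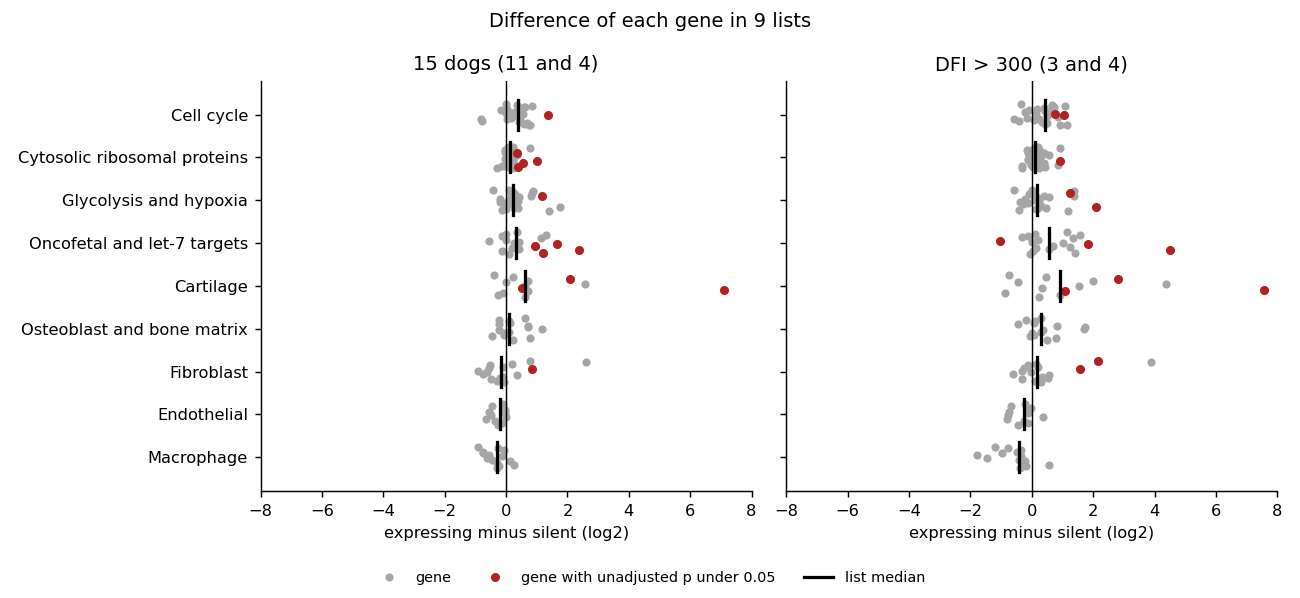
Difference in log2 signal, expressing minus silent, of each gene in 9 lists over 15 dogs and within DFI > 300, with the list median as a bar and red for an unadjusted p under 0.05. The cell cycle median is 0.39 over 15 dogs and 0.42 within DFI > 300, while the macrophage median is -0.30 and -0.41.

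Of 7 genes of the study's qRT-PCR that were measured and are not IGF2BP1, 2 had an unadjusted p under 0.05, 1 in each direction, against 4% of all named genes higher and 2.75% lower. The study chose these genes on these samples for their difference between cohorts, and all silent dogs are in 1 cohort, so their values are not independent evidence. FBP1, a gluconeogenic enzyme, differed by 3.04 (SE 0.96) and CCDC3, a secreted protein, by -2.40 (SE 0.73). Only 1 of the 7 genes had a mean above the reporter level, and the mean of FBP1, at 5.20, was below it. ADHFE1 differed by -0.10 (SE 0.20) by its brightest probeset, and by -0.64 (SE 0.21) and -2.67 (SE 1.08) by dimmer ones. All ADHFE1 probesets had means below the reporter level. Within the DFI > 300 cohort FBP1 differed by 1.67 (SE 1.13) and CCDC3 by -1.71 (SE 1.06).

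Genes next to IGF2BP1 on chromosome 9 were described in the same way. Of 20 measured neighbors, 10 on each side, 10 had higher and 10 lower values in expressing tumors. None had an unadjusted p under 0.05 in either comparison, against 6.82% of all probesets over 15 dogs and 6.3% within DFI > 300, and none had groups that did not overlap. Among the 7 above background, PHB had the highest difference, at 0.44 (SE 0.30), and HOXB7 the lowest, at -0.56 (SE 0.47).

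The 8 DFI < 100 tumors share no array with the comparison within DFI > 300, and their IGF2BP1 signal spanned 7.17 to 10.37. Slopes on the IGF2BP1 signal among these 8 dogs gave 0 probesets (0%) past an adjusted p of 0.05 in limma, while 6.26% had an unadjusted p under 0.05, with 4.09% positive and 2.18% negative. Of the 15 genes higher in the DFI > 300 comparison, 12 had positive slopes, against 55.2% of all named genes, and of the 15 lower genes 9 had negative slopes, against 44.8%. CCND2 had a slope of 1.27 (SE 0.19, limma adjusted p = 0.789), between 1.12 and 1.58 with each dog left out in turn. LAMB1 had a slope of 0.72 (SE 0.19), but its brightest probeset had -0.03 (SE 0.18). CAP1 had a slope of -0.39 (SE 0.15). FBLN2 ran the other way, at -0.41 (SE 0.12), and at -0.24 (SE 0.20) by its brightest probeset. GJC1 had a slope of 0.07 (SE 0.12), less than its SE.

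Within the DFI < 100 cohort 25 of 26 cell cycle genes had positive slopes, and 10 had an unadjusted p under 0.05, against 3.92% of all named genes in that direction and 2.24% in the other. Above the reporter level 56.8% of genes had positive and 43.2% negative slopes, and 4.42% and 2.39% passed that p. With quantile normalization the split of probesets at that p was 1395 positive and 1302 negative, against 1751 and 933. CCNA2, the S and G2 phase cyclin, had a slope of 0.42 (SE 0.09), CCNB2 of 0.43 (SE 0.10) and CDK1, their kinase, of 0.42 (SE 0.10), each with a limma adjusted p of 0.789. Of 16 fibroblast genes 13 had negative and 3 positive slopes, with 6 negative and 1 positive at an unadjusted p under 0.05. COL3A1, COL5A1 and COL6A3, all structural collagens, had slopes of -0.65 (SE 0.23), -0.71 (SE 0.26) and -0.76 (SE 0.27). DPT had the positive slope at that p, 0.49. Between expressing and silent tumors, 5 of the 16 were higher and 11 lower over 15 dogs, and 10 and 6 within DFI > 300. Those 3 collagens differed by 0.29, 0.10 and 0.32 within DFI > 300. Of 12 endothelial markers 11 had negative slopes. The part of these cell types in the slopes was not tested.

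**Figure D4:**
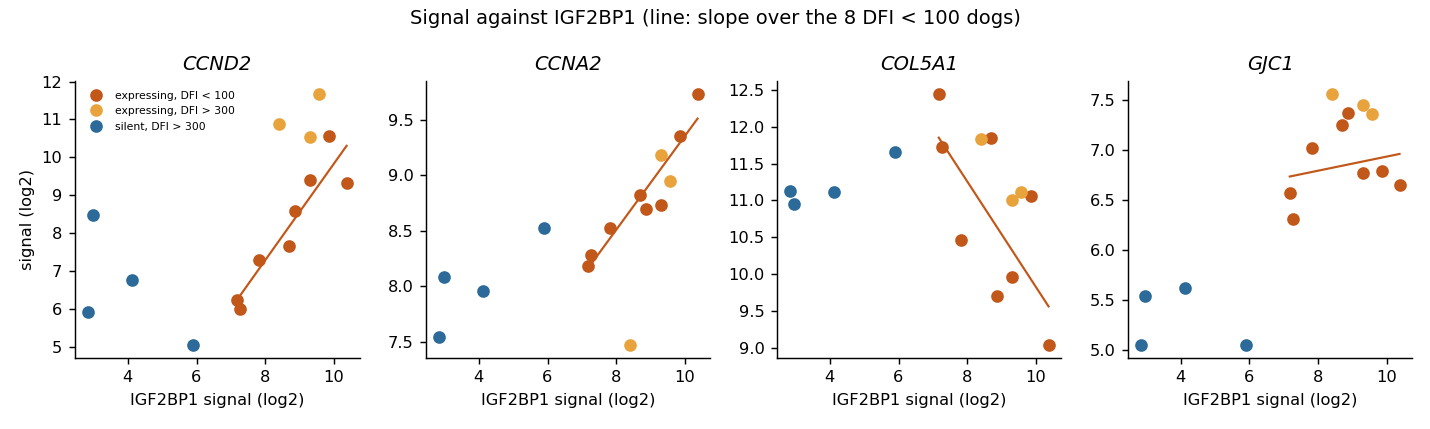
Log2 signal of CCND2, CCNA2, COL5A1 and GJC1 against that of IGF2BP1 in 15 tumors, with the line of the slope over the 8 DFI < 100 tumors. CCND2 has a slope of 1.27, CCNA2 of 0.42, COL5A1 of -0.71 and GJC1 of 0.07.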

How the data were processed

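Total RNA of 15 primary osteosarcomas was hybridized to Affymetrix Canine 2.0 arrays, 1 array a dog. The deposited values are PLIER intensities, made by the authors with Affymetrix Expression Console. No array file names a genome build. The study ran its arrays in batches, and the sources used here do not assign them to samples, so batch was not tested. The deposited intensities were turned into log2 values without adding a constant. The array held 43035 probesets, and 175 of them were controls and were not tested. Of the 42860 tested, 29254 had 1 gene symbol, 439 several and 13167 none, and the symbols of 15115 genes came from the platform annotation. A gene in a list is represented by its brightest probeset.

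The members and lists, and the genes described, were chosen with earlier results of these data known. Named genes were the 15 higher and 15 lower of each comparison with the smallest p, a fold above 2 and the higher mean above the reporter level, then list members with the smallest p, defining markers, qRT-PCR genes and neighbors of IGF2BP1. Other genes in the text were picked after their values were seen. For genes named by rank, the probeset of smallest p was used when the gene had more than 1. No gene's correlation with IGF2BP1 over 15 dogs was given, because the dogs fall into separate clusters. A slope over 15 dogs was run only as an alternative and is given as a count of calls.

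Differences, expressing minus silent, were fitted with limma 3.58.1 (R 4.3.3) on all probesets and adjusted by Benjamini-Hochberg. The steps were tested on simulated data. Degradation was read as the log2 ratio of 3' to 5' control probesets. Over actin and GAPDH it was 2.14 ± 0.30 in expressing and 1.87 ± 0.32 in silent tumors (exact permutation p = 0.155). With EF1A added it was 5.18 ± 1.07 in expressing and 5.56 ± 1.78 in silent tumors (exact permutation p = 0.678). The second measure was computed first, and the narrower one was adopted after its values were seen, so both are given. Their differences have opposite signs, and the groups overlap in both. Each sample is 1 dog, and the number of arrays limits the precision.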

Additional observations from a re-analysis of the deposited data

Results flagged for a closer look

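Among 260 checks of single genes within the silent or the DFI < 100 tumors, 17 had 1 tumor far from the rest of its group. Chance flags about 1 in 20 such groups. In the silent tumors, dog 193231 had ACP5, an osteoclast phosphatase, at 6.96 against 11.99 to 12.34 in the other 3, and BMP5 at 6.59 against 4.09 to 4.16. Dog 190030 had AGTR1 at 9.09 and ADGRL3 at 2.79. Dog 180119 had HMGA1 at 9.03, NDUFA10 at 9.51 and COL3A1 at 11.90, against 13.32 to 13.51 in the others for COL3A1.

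In the DFI < 100 tumors, dog 208911 had IGF1 at 9.39, PECAM1 at 11.49, TSPAN12 at 11.71, TCFL5 at 6.36 and LOC480926 at 5.63. Dog 208756 had SPP1 at 10.14 and ARID3A at 3.18. Dog 212759 had COL3A1 at 10.61, dog 173175 ARL9 at 6.37 and dog 204714 NNT at 6.19.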

How the results depend on the processing

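Over 15 dogs, the count of 2 probesets past an adjusted p of 0.05 was 1 with the methods' t-test, 1 among probesets above the reporter level, 1 with cohort as a covariate, 1 in osteoblastic tumors, and 0 with age as a covariate, without Greyhounds, as a slope on IGF2BP1, and with IGF2BP1 left out of the adjustment, the last chosen after seeing the data. Leaving out each dog gave 0 to 5, and the unadjusted count of 2922 ran from 2033 to 3892. GJC1 kept its direction in every alternative. Within DFI > 300, the count of 5 was 0 with the t-test, the offset of 16, probesets above the reporter level, and age, 1 with limma's trend and robust options and with 15 dogs in 3 groups, and 11 in osteoblastic tumors. Leaving out each dog gave 3 to 19, and the unadjusted count 1893 to 3004. Unadjusted counts above the reporter level, which test fewer probesets, were 1295 over 15 dogs, 869 within DFI > 300 and 1029 for the slopes, and the DFI > 300 count with age was 1046. For the slopes, the adjusted count was 0 throughout, the unadjusted count of 2684 ran from 2258 to 3739 with each dog left out, and quantile normalization gave 1395 positive and 1302 negative, against 1751 and 933. YTHDC2 within DFI > 300 was 0.71 and became -0.047 with age as a covariate. Of 2042 values for genes named over 15 dogs, all kept their direction, as did 1430 of 1431 within DFI > 300. Genes named by rank were picked on these same dogs and the alternatives refit the same arrays, so a kept direction is not independent evidence. The cause of the shifts between settings was not tested. No paired analysis was possible because the groups share no replicate numbers. The small groups, and the sharing of cohort, breed and age with status, limit every comparison.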
